A study of Homo sapiens with 14 samples.

Results

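The 9 genes described here belong to the TGF-beta and Hippo signalling pathways and were measured in 3 established human ovarian carcinoma cell lines, OVCAR-3, CAOV3 and SKOV3, treated with the histone demethylase inhibitor GSK-J4. TGFB1 and TGFB2 encode TGF-beta ligands, SMAD7 and SKIL encode inhibitors that the pathway induces against itself, CCN1, CCN2, ANKRD1 and AMOTL2 are widely used targets of the co-activators YAP and TAZ, and ID1 is a target of the related BMP branch. The genes were chosen by name, with earlier results of these data known. Counts of the 9 genes below therefore describe them and are not an independent test. All 9 were found among the 58825 gene identifiers of each of the 3 deposited count tables, 1 for each line, and all 9 passed the filter on low counts in every comparison below.

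GSK-J4 is a cell-permeable ester that releases an inhibitor of the H3K27 demethylases JMJD3 (KDM6B) and UTX (KDM6A), and GSK-J5 is the ester of an isomer with little activity on these enzymes, which the labels name as the control. The groups were OVCAR-3 with GSK-J4 for 48 h, against OVCAR-3 with GSK-J5 for 48 h (2 libraries each), and OVCAR-3, CAOV3 and SKOV3 with GSK-J4 for 72 h, each against the same line with GSK-J5 for 72 h (3 libraries each). The dose was 2.5 µM, which the labels give for GSK-J4 in all samples and for GSK-J5 in those of replicate 3. Every library came from cells given 1 of these compounds, so no untreated level can be given. The libraries form 2 sets. Replicates 1 and 2 make up the first set, whose protocol names stripped medium and an RNeasy mini kit. Replicate 3, at 72 h in each line, makes up the second set, with serum in the stated media, an RNeasy Plus kit and poly(A) selection. No label says that replicates came from separate cultures, so p-values measure the spread between these libraries, which may be technical. In bulk RNA of a cell line, a change in the share of cells that express a gene and a change in its RNA per cell cannot be told apart.

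TGF-beta ligands are secreted in a latent form, and once freed they bind receptor kinases that phosphorylate SMAD proteins, which then act on target genes in the nucleus. SMAD7 blocks the receptors and SKIL, also called SnoN, represses SMAD-bound genes, so both close a negative feedback loop. In the Hippo pathway the LATS kinases hold YAP and TAZ in the cytoplasm. When this hold is released, YAP and TAZ enter the nucleus and act through TEAD factors on genes such as CCN1 and CCN2. Both pathways are studied in ovarian carcinoma for their part in invasion and in the response to drugs, and CCN1 and CCN2 can respond to either of them.

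The 22 libraries held 24037007 to 37990707 counts assigned to genes. Levels are given as CPM, the count scaled to library size, here with TMM factors over all 22 libraries. Mitochondrial genes took 0.461% to 1.92% of the counts and the 20 most abundant genes 7.73% to 13.0%, with the highest values, 12.7% and 13.0%, in replicates 1 and 2 of OVCAR-3 with GSK-J4 at 72 h. A list of 10 epithelial markers summed to between 7140 and 11820 CPM in OVCAR-3 libraries and between 7447 and 8314 CPM in CAOV3 libraries, but to between 985.5 and 1999 CPM in SKOV3 libraries. In SKOV3 EPCAM lay between 3.38 and 19.9 CPM and MUC16, at or near 0, between 0 and 0.365 CPM. Other markers of the list made up most of the sum in that line. A list of 8 fibroblast markers summed to between 427.4 and 739.5 CPM in SKOV3 libraries, against at most 58.23 CPM in the other lines.

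Promoter windows of 300 bases, 250 before and 50 after an annotated start site, were available from RefSeq (GRCh38.p14) for 8 of the 9 genes, in 11 windows. CCN1 had no entry. The windows of 3 YAP targets are shown because they differ in how many copies of the TEAD core sequence they hold. All 3 lie on the minus strand and are written 5′ to 3′ in the direction of transcription, with every match to GGAATG (TEAD), CAGAC (SMAD), GGCGCC (GC-rich SMAD) or TGANTCA (AP-1), on either strand, in capitals.
CCN2, chr6:131951323-131951622: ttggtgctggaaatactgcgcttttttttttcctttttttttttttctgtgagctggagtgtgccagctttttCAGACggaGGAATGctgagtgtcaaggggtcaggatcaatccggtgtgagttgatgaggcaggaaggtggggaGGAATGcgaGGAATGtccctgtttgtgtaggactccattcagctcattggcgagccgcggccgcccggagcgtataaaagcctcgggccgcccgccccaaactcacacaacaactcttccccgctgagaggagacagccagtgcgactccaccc
ANKRD1, chr10:90921038-90921337: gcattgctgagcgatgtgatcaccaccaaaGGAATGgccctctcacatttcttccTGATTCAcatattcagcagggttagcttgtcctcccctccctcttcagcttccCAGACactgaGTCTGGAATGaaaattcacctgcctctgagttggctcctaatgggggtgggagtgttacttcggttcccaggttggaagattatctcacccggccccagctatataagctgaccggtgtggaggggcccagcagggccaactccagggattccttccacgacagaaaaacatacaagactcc
AMOTL2, chr3:134374398-134374697, the downstream one of its 2 windows: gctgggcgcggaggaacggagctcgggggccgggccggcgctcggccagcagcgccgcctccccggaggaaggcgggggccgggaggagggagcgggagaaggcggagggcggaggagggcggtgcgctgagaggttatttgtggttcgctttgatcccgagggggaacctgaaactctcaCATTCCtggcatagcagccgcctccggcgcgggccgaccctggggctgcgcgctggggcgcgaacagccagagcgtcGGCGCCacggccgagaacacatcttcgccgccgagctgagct
The CCN2 window holds GGAATG at 3 places, starting at bases -169, -104 and -95 counted from the start site, and CAGAC at -177. The ANKRD1 window holds GGAATG at -220 and -128, CAGAC or its reverse complement at -142 and -132, and TGATTCA at -195; the SMAD match at -132 and the TEAD match at -128 share 1 base. The AMOTL2 window holds the reverse complement of GGAATG at -69 and GGCGCC at 9, which is after the start site. Among the 35116 promoter windows of the table, GGAATG was found in 14%, CAGAC in 45.3%, GGCGCC in 19.2% and TGANTCA in 7.71%, while 5, 6, 2 and 1 of the 8 genes with a window held them in that order. The TEAD core was also found in windows of TGFB2 and ID1, and CAGAC in windows of TGFB2, SMAD7, SKIL and the other AMOTL2 window. TGFB1 held no match. The shares are per window and the counts per gene, and AMOTL2 and SMAD7 have more than 1 window, so the 2 measures are not like for like. These matches describe the letters of the windows only.

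In cells given GSK-J5 for 72 h, the 3 lines differed widely in which of the 9 genes they expressed. OVCAR-3 had the highest levels of AMOTL2, CCN2 and TGFB2 and the lowest of TGFB1, CAOV3 had by far the highest ANKRD1 and the lowest SMAD7, and SKOV3 had the highest SMAD7 and ID1. Per kilobase of exon, ID1 was the most abundant of the 9 in all 3 lines, at 232.3 ± 56.4 CPM per kb in OVCAR-3, 238.9 ± 10.7 CPM per kb in CAOV3 and 897.4 ± 435.1 CPM per kb in SKOV3 (SD, n = 3 each). In OVCAR-3 it was followed by AMOTL2 with 123.9 ± 23.0 CPM per kb and CCN1 with 37.5 ± 6.76 CPM per kb (SD, n = 3 each). ANKRD1 was at 2.57 ± 0.388 CPM per kb in OVCAR-3, 93.6 ± 10.7 CPM per kb in CAOV3 and 0.593 ± 0.853 CPM per kb in SKOV3 (SD, n = 3 each).

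By edgeR's quasi-likelihood test with Benjamini-Hochberg adjustment over all genes, 7 of the 9 differed between OVCAR-3 and CAOV3, where 54.5% of all tested genes did, 9 between OVCAR-3 and SKOV3, where 57.5% did, and 6 between CAOV3 and SKOV3, where 59.8% did. The share is near that of all genes in the last comparison and above it in the others. TGFB1 was 10.9-fold lower in OVCAR-3 than in CAOV3 (log2 difference -3.45, SE 0.16) and did not pass the test between CAOV3 and SKOV3 (-0.07, 95% interval -0.39 to 0.26, adjusted p = 0.713). TGFB2 was highest rather than lowest in OVCAR-3, 10.5-fold higher in OVCAR-3 than in CAOV3 and 5.61-fold higher than in SKOV3. CAOV3 and SKOV3, which follow each other in the order for TGFB2, were not separated (adjusted p = 0.117). SMAD7 was 21.3-fold lower in CAOV3 than in SKOV3, with OVCAR-3 between them. AMOTL2 was 3.98-fold higher in OVCAR-3 than in CAOV3 and 8.76-fold higher than in SKOV3. ID1 was 3.66-fold lower in OVCAR-3 than in SKOV3, and OVCAR-3 and CAOV3 were not separated for it (adjusted p = 0.764). CCN1 was not separated between OVCAR-3 and CAOV3 either (adjusted p = 0.0759).

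**Figure D1:**
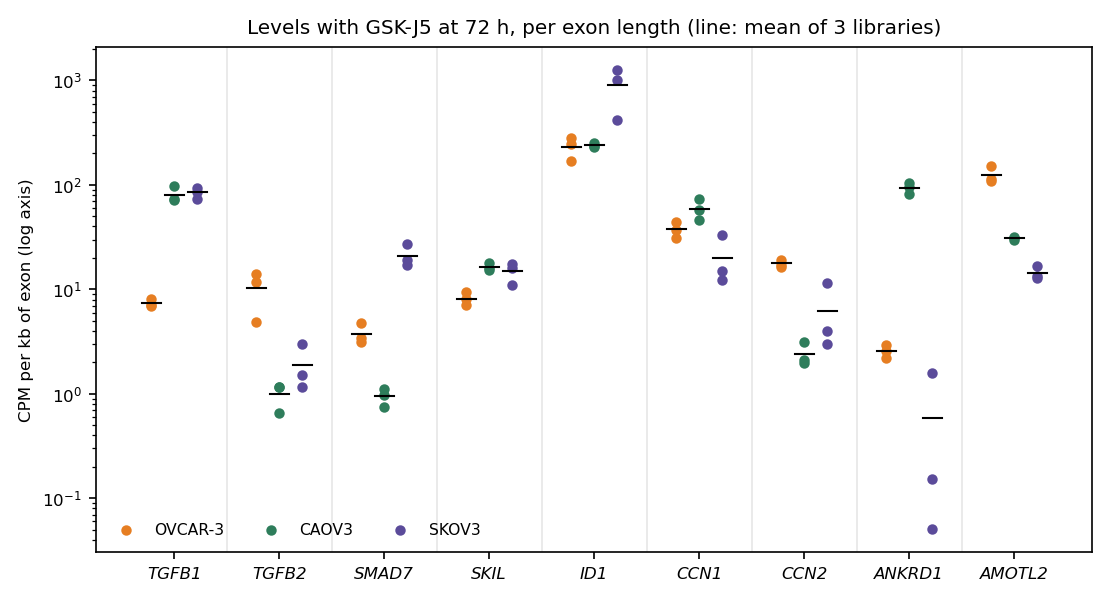
Levels of the 9 genes with GSK-J5 at 72 h in each library of OVCAR-3, CAOV3 and SKOV3, in CPM per kb of exon on a log axis. Each point is 1 library and each short line the mean of 3; the mean of ANKRD1 spans the widest range, 93.6 CPM per kb in CAOV3 against 0.593 CPM per kb in SKOV3.

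SKOV3 libraries differed strongly between the sets under both compounds. In SKOV3, ID1 was 2.83-fold lower with GSK-J4 and 2.75-fold lower with GSK-J5 in replicate 3 than in the mean of replicates 1 and 2, CCN2 was 3.67-fold and 3.27-fold higher, and CCN1 was 2.02-fold and 2.44-fold higher. ANKRD1 in SKOV3 rested on few counts: 10, 25 and 117 with GSK-J4 and 3, 10 and 75 with GSK-J5 in replicates 1, 2 and 3. Medium, kit and library preparation differed between the sets together and cannot be told apart. Leaving out replicate 1 or replicate 2 brought the count of genes that differed between OVCAR-3 and SKOV3 from the 9 above to 4 and 5. Without replicate 1 ANKRD1 was no longer among them (log2 difference 1.70, edgeR adjusted p = 0.18). Fewer libraries remain in these fits, and the shares of all genes they called are not given here.

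In OVCAR-3 after 48 h, all 4 YAP targets and both TGF-beta inhibitors rose with GSK-J4, while the ligand genes and ID1 did not pass the test. CCN1 was 7.41-fold higher, AMOTL2 5.68-fold, ANKRD1 3.83-fold, SMAD7 3.61-fold, CCN2 3.28-fold and SKIL 1.64-fold. These 6 of 9 genes were called by edgeR's quasi-likelihood test at an adjusted p under 0.05, where 18.9% of the 17402 genes tested were called, 11.3% higher and 7.63% lower.

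The ligands come first. TGFB1 (chr19:41301587-41353911, minus strand, GENCODE 29 on GRCh38) had 11.3 and 13.1 CPM with GSK-J4, against 20.5 and 21.3 CPM with GSK-J5. Both GSK-J4 libraries lay below both GSK-J5 libraries. The log2 change was -0.74 (SE 0.22, 95% interval -1.26 to -0.23), with an adjusted p of 0.0518 in edgeR's test, just outside the threshold. With DESeq2's Wald test and with limma voom the adjusted p was 0.0107 and 0.049. TGFB2 (chr1:218346235-218444619, plus strand) had 44.6 and 59.6 CPM with GSK-J4, against 56.7 and 66.9 CPM with GSK-J5, so the groups overlapped on this scale, though not on library totals alone (log2 change -0.22, 95% interval -0.93 to 0.50, edgeR adjusted p = 0.607).

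SMAD7 (chr18:48919853-48952052, minus strand) had 59.8 and 62.2 CPM with GSK-J4, against 16.5 and 17.97 CPM with GSK-J5. The replicates of each compound were close to each other and far from those of the other compound. Its log2 change was 1.85 (SE 0.36, 95% interval 1.02 to 2.68, edgeR adjusted p = 0.0221). SKIL (chr3:170357678-170396835, plus strand) had 100.3 and 116.9 CPM with GSK-J4, against 65.9 and 69.1 CPM with GSK-J5, again without overlap. Its log2 change of 0.72 (SE 0.20, 95% interval 0.26 to 1.17, edgeR adjusted p = 0.0424) was the smallest of the 6 called, and with DESeq2's size factors in place of TMM its adjusted p was 0.0515.

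Among the YAP targets, CCN1 (chr1:85580761-85583962, plus strand), a secreted matricellular protein once named CYR61, had 655 and 644 CPM with GSK-J4, against 91.1 and 87.6 CPM with GSK-J5. CCN2 (chr6:131948176-131951373, minus strand), the related connective tissue growth factor, had 132 and 168 CPM with GSK-J4, against 44.3 and 49.1 CPM with GSK-J5. In both genes the lower GSK-J4 library lay above the higher GSK-J5 library by more than the gap between replicates. The log2 change was 2.89 for CCN1 (SE 0.51, 95% interval 1.72 to 4.06, edgeR adjusted p = 0.0188). For CCN2 it was 1.71 (SE 0.33, 95% interval 0.95 to 2.47, adjusted p = 0.022).

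ANKRD1 (chr10:90912096-90921276, minus strand), an ankyrin-repeat protein known best as a stress-induced cofactor in heart muscle, had 26.6 and 25.2 CPM with GSK-J4, against 6.26 and 7.54 CPM with GSK-J5. Its log2 change was 1.94 (SE 0.39, 95% interval 1.04 to 2.83, edgeR adjusted p = 0.0233). AMOTL2 (chr3:134355874-134375479, minus strand), an angiomotin family protein that binds YAP and holds it back, had 3429 and 3692 CPM with GSK-J4, against 635 and 644 CPM with GSK-J5. The groups of both genes lay well apart. AMOTL2 was the most abundant of the 9 genes with GSK-J4, at 594.9 ± 31.1 CPM per kb against 106.9 ± 1.11 CPM per kb with GSK-J5 (SD, n = 2 each), and had the smallest adjusted p of the 9, 0.0126.

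ID1 (chr20:31605283-31606515, plus strand), an inhibitor of helix-loop-helix transcription factors, had 302 and 311 CPM with GSK-J4, against 358 and 410 CPM with GSK-J5. Both GSK-J4 libraries lay below both GSK-J5 libraries, by a small step. The log2 change of -0.30 (SE 0.17, 95% interval -0.68 to 0.09) had an adjusted p of 0.208 in edgeR's test. Scaled by library totals alone the difference was larger, at 283 and 297 CPM with GSK-J4 and 391.6 and 434 CPM with GSK-J5.

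The 48 h calls rest on 2 libraries for each compound. With any single 48 h library left out, edgeR called 0 of the 9 genes. Without replicate 1 of both times it called 0 and without replicate 2 it called 1, while the directions of the 6 were the same. With the replicate number as a block, 2 genes were called, CCN1 (edgeR adjusted p = 0.0488) and AMOTL2 (edgeR adjusted p = 0.0427). The shares of all genes called in these alternative fits are not given here. The sum of 8 fibroblast markers moved with the compound, to 12.3 and 13.9 CPM with GSK-J4 at 48 h against 41.9 and 42.7 CPM with GSK-J5, most of it COL1A1, and 1 to 6 of the 8 markers were at 0 in these libraries. The epithelial marker sum was 7351 and 7140 CPM with GSK-J4 and 11120 and 11310 CPM with GSK-J5. The part of either marker sum in the results was not tested.

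**Figure D2:**
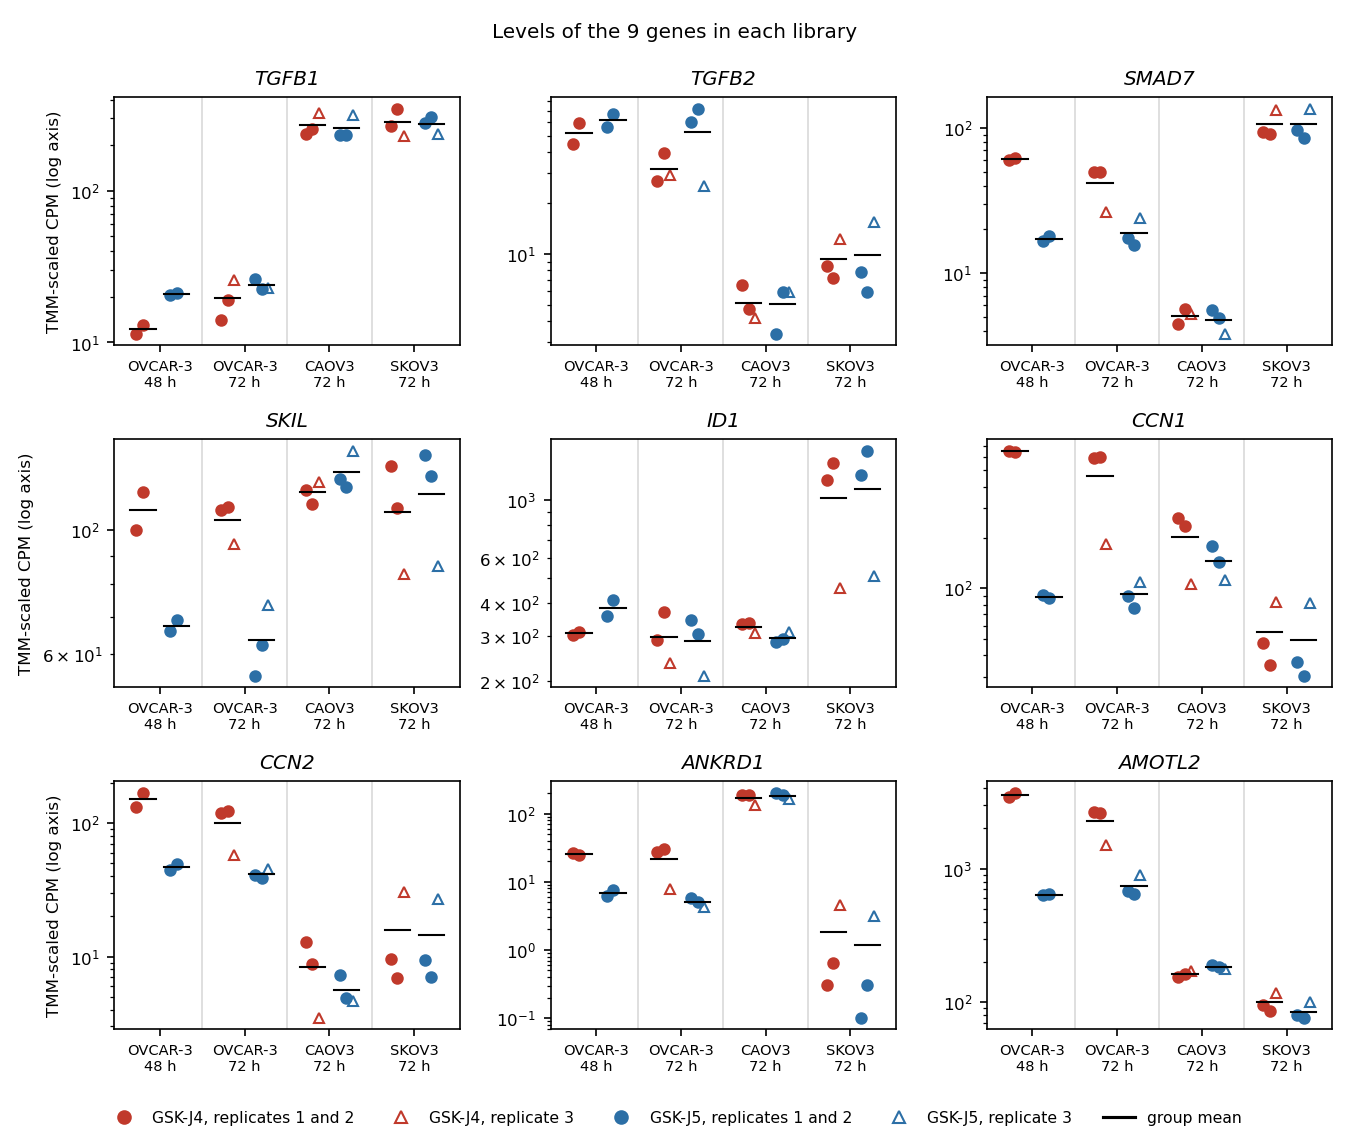
Levels of the 9 genes in all 22 libraries, in CPM on a log axis, 1 panel for each gene, with GSK-J4 left of GSK-J5 in each line and time. Each point is 1 library. In OVCAR-3, the 6 genes called at 48 h have every GSK-J4 point above every GSK-J5 point at both times on this TMM scale. CAOV3 and SKOV3 points largely overlap. The share of all genes separated in this way was not counted.

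After 72 h in OVCAR-3, the same 6 genes had every GSK-J4 library above every GSK-J5 library. With GSK-J4, replicate 3 lay far below replicates 1 and 2 for all of them but SKIL, where the step was smaller. EdgeR called 0 of the 9 genes, where 0.0298% of the 16802 genes tested were called. At an unadjusted p under 0.05 in edgeR's test there were 6, where 7244 of the 16802 genes tested had such a p. DESeq2's Wald test called 6 and limma voom 0, and the shares of all genes they called are not given here. TGFB1, TGFB2 and ID1 overlapped between the compounds. These orders are on the TMM scale. How many of all genes were separated in this way, at either time, was not counted. On library totals alone, SMAD7 overlapped, with 25.4 CPM with GSK-J4 and 26.7 CPM with GSK-J5 in replicate 3, and TGFB1 was lower in every GSK-J4 library.

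CCN1 had 596, 605 and 182 CPM with GSK-J4 in replicates 1, 2 and 3, against 89.9, 76.6 and 110 CPM with GSK-J5. AMOTL2 had 2668, 2594 and 1488 CPM with GSK-J4, against 677, 647 and 900 CPM with GSK-J5. In both, replicate 3 was the lowest with GSK-J4 and the highest with GSK-J5, so the compounds lay closest in the second set. The log2 change over the 3 replicates was 2.16 for CCN1 (SE 0.51, 95% interval 0.92 to 3.41, edgeR adjusted p = 0.07). For AMOTL2 it was 1.56 (SE 0.34, 95% interval 0.73 to 2.40, adjusted p = 0.07).

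ANKRD1 had 27.8, 30.1 and 7.92 CPM with GSK-J4, against 5.86, 5.09 and 4.32 CPM with GSK-J5. CCN2 had 119, 124 and 57.5 CPM with GSK-J4, against 40.4, 38.7 and 45.1 CPM with GSK-J5. Again the second set had the smallest gap between the compounds. The log2 changes were 1.90 (SE 0.39) for ANKRD1 and 1.19 (SE 0.32) for CCN2, each with an edgeR adjusted p of 0.07.

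SMAD7 had 49.5, 50.03 and 26.2 CPM with GSK-J4, against 17.3, 15.6 and 23.9 CPM with GSK-J5, so in replicate 3 the compounds nearly met. SKIL had 109, 110 and 94.4 CPM with GSK-J4, against 54.8, 62.3 and 73.4 CPM with GSK-J5. SKIL was the steadiest of the 6 with GSK-J4. The log2 change was 1.10 (SE 0.36) for SMAD7 and 0.71 (SE 0.20) for SKIL, with edgeR adjusted p-values of 0.0791 and 0.0705.

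TGFB2 had 26.9, 39.3 and 29.4 CPM with GSK-J4, against 60.6, 72.3 and 25.1 CPM with GSK-J5. It was lower with GSK-J4 in the first set and slightly higher in the second, where the GSK-J5 level was 2.64-fold below the mean of the other two. TGFB1 had 14.1, 19.2 and 25.6 CPM with GSK-J4, against 26.1, 22.5 and 22.7 CPM with GSK-J5, and its direction also differed between the sets. ID1 had 288, 371 and 234 CPM with GSK-J4, against 345, 306 and 209 CPM with GSK-J5. Its log2 change of 0.05 (SE 0.17) was -0.34 when libraries were scaled by their totals alone, so its direction depends on the scaling; totals alone shifted the median change of all genes at 72 h by -0.389.

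Within the first set, edgeR called 8 of the 9 genes at 72 h, where 71.7% of all genes tested were called. CCN1 was 7.58-fold higher with GSK-J4, ANKRD1 5.56-fold, AMOTL2 4.18-fold, CCN2 3.22-fold, SMAD7 3.17-fold and SKIL 1.97-fold, while TGFB1 was 1.39-fold lower (adjusted p = 0.0287) and TGFB2 1.91-fold lower (adjusted p = 0.00255). The second set holds 1 library for each compound and gives values with no test. In it the log2 ratio of GSK-J4 to GSK-J5 was 0.87 for ANKRD1, 0.73 for CCN1, 0.73 for AMOTL2, 0.36 for SKIL, 0.35 for CCN2 and 0.13 for SMAD7. All 6 had the same sign as in the first set and a smaller size, except that for SMAD7 the sign turned on the library totals given above. Leaving out replicate 3 of GSK-J4 alone, or replicate 3 of GSK-J5 alone, gave 8 called genes, which is no further support. The library set term then fits the other replicate 3 library by itself, so the change comes from the first set. Fitting the 72 h contrast on all 10 OVCAR-3 libraries, which adds the 48 h ones to the estimate of spread, gave 6 called genes where 43.8% of all genes were called, with adjusted p-values between 0.0097 for ANKRD1 and 0.0208 for SMAD7.

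**Figure D3:**
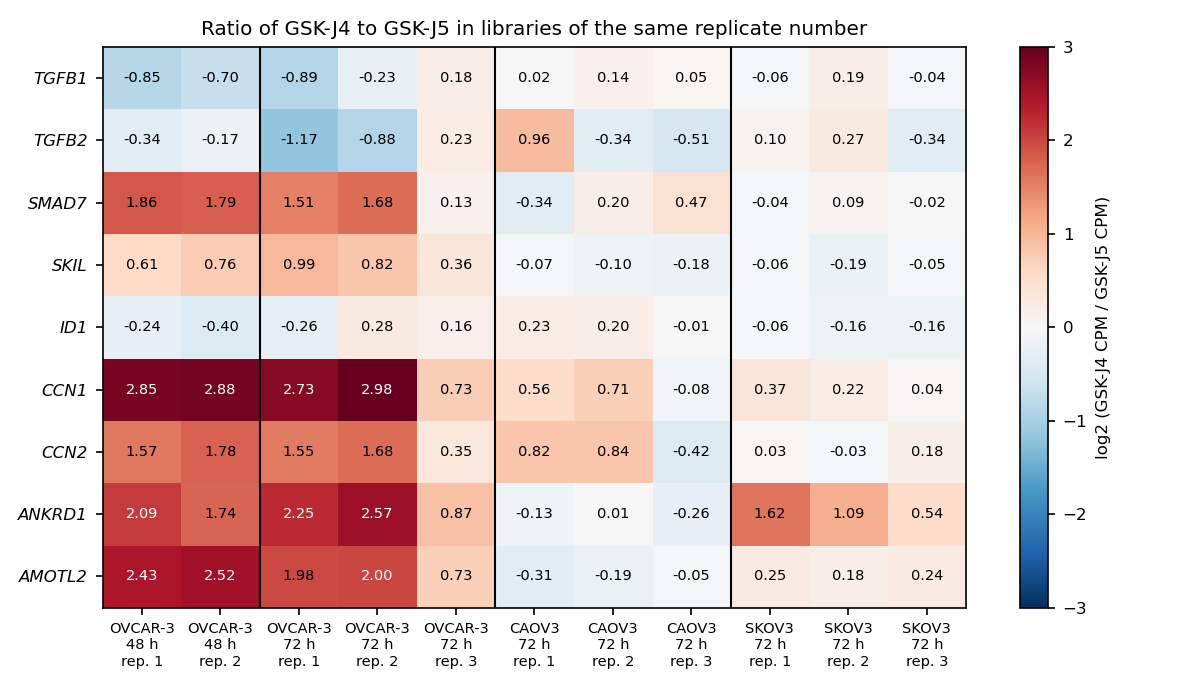
Log2 ratio of GSK-J4 to GSK-J5 between libraries with the same replicate number, for the 9 genes in each line and time. Each coloured square is 1 such pair, with its value printed and red for higher with GSK-J4; in OVCAR-3 at 72 h, replicate 3 lies nearest 0 for CCN1, CCN2, ANKRD1, AMOTL2, SMAD7 and SKIL.

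The change at 72 h did not differ detectably from that at 48 h. Of the 9 genes 0 were called for the difference between times in edgeR's interaction test, and 0 had an unadjusted p under 0.05. DESeq2 and limma voom also called 0. Among all genes edgeR called 0.00575%, and 1279 of 17402 had an unadjusted p under 0.05. The widest gap was for AMOTL2, whose log2 change at 72 h minus that at 48 h was -0.91 (95% interval -1.89 to 0.06, adjusted p = 0.717). Within the first set alone AMOTL2 was called for this difference (-0.45, SE 0.12, adjusted p = 0.0145), in a fit that called 27.0% of all genes, and CCN1 was not (0.03, 95% interval -0.26 to 0.31).

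In CAOV3 and SKOV3 after 72 h, the levels of the 9 genes with GSK-J4 lay much closer to those with GSK-J5. EdgeR called 0 of 9 in CAOV3, where 0.315% of all genes were called, and 0 of 9 in SKOV3, where 0.0412% were. At an unadjusted p under 0.05 there was 1 gene in each line, CCN1 in CAOV3 and AMOTL2 in SKOV3. Among all genes, 2801 of 17137 in CAOV3 and 594 of 16981 in SKOV3 had such a p. DESeq2 and limma voom each called 1 gene in CAOV3, CCN1, and 0 in SKOV3. The shares of all genes they called are not given here.

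In CAOV3, CCN1 had 262, 234 and 106 CPM with GSK-J4, against 178, 143 and 112 CPM with GSK-J5. It was higher with GSK-J4 in replicates 1 and 2 and slightly lower in replicate 3, and the groups overlapped. The log2 change was 0.40 (SE 0.12, 95% interval 0.15 to 0.64, edgeR adjusted p = 0.098). Within the first set alone it was 0.60 and passed (adjusted p = 0.000485), in a fit that called 14.1% of all genes.

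CCN2 in CAOV3 had 12.9, 8.78 and 3.46 CPM with GSK-J4, against 7.30, 4.92 and 4.62 CPM with GSK-J5, with the same split between the sets (log2 change 0.45, 95% interval -0.11 to 1.02, edgeR adjusted p = 0.43). AMOTL2 had 154, 162 and 172 CPM with GSK-J4, against 190, 185 and 178 CPM with GSK-J5. Every GSK-J4 library was lower, opposite to OVCAR-3. It was the only gene of the 9 in CAOV3 whose groups did not overlap on the TMM scale. On library totals alone SKIL, lower with GSK-J4, and ID1, higher, did not overlap either. How many of all genes were separated in this way in CAOV3 was not counted. The log2 change of AMOTL2, -0.18 (95% interval -0.36 to 0.00), had an adjusted p of 0.319 in edgeR's test. Within the first set it was -0.27 and called (edgeR adjusted p = 0.0274). ANKRD1, abundant in this line, had 187, 190 and 136 CPM with GSK-J4, against 204, 189 and 162 CPM with GSK-J5 (-0.12, 95% interval -0.30 to 0.05).

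The other 5 genes in CAOV3 had log2 changes between -0.11 for SKIL and 0.14 for ID1. SMAD7, at 4.43, 5.62 and 5.25 CPM with GSK-J4 and 5.61, 4.89 and 3.80 CPM with GSK-J5, is at a low level in this line and has a wide interval (0.11, 95% interval -0.43 to 0.65). TGFB1 was measured far more tightly, at 238, 256 and 326 CPM with GSK-J4 and 235, 233 and 314 CPM with GSK-J5 (0.07, 95% interval -0.10 to 0.24). TGFB2 was low in every CAOV3 library, at 6.51, 4.70 and 4.18 CPM with GSK-J4 and 3.36, 5.97 and 5.94 CPM with GSK-J5. ID1 had 333, 336 and 306 CPM with GSK-J4, against 283, 292 and 309 CPM with GSK-J5, and SKIL had 118, 112 and 122 CPM with GSK-J4, against 124, 120 and 139 CPM with GSK-J5.

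In SKOV3, AMOTL2 had 95.3, 86.2 and 118 CPM with GSK-J4, against 80.1, 76.2 and 99.8 CPM with GSK-J5. Each GSK-J4 library lay above the GSK-J5 library with the same replicate number, although the groups overlapped. The log2 change was 0.22 (SE 0.07, 95% interval 0.07 to 0.37), with an adjusted p of 0.999 in edgeR's test. SKOV3 replicates pair by number, and with the replicate number as a block the adjusted p was 0.281.

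CCN1 in SKOV3 had 47.5, 35.2 and 83.6 CPM with GSK-J4, against 36.8, 30.2 and 81.5 CPM with GSK-J5 (log2 change 0.21, 95% interval -0.02 to 0.45). With the replicate block its interval was 0.04 to 0.37 (edgeR adjusted p = 0.746). SMAD7, highest in this line, had 93.9, 91.2 and 134 CPM with GSK-J4, against 96.2, 85.6 and 136 CPM with GSK-J5 (0.01, 95% interval -0.14 to 0.16). The SMAD7 libraries of equal replicate number nearly coincide. ANKRD1 had a log2 change of 0.91 with a wide interval of -0.13 to 1.95, on the few counts given above. The other 5 lay between -0.13 for ID1 and 0.07 for CCN2. CCN2 had 9.62, 6.94 and 30.4 CPM with GSK-J4, against 9.40, 7.07 and 26.9 CPM with GSK-J5, and ID1 had 1201, 1391 and 457 CPM with GSK-J4, against 1255, 1553 and 511 CPM with GSK-J5. In both genes the sets lay further apart than the compounds. TGFB1 ran between 232 and 348 CPM with GSK-J4 and between 239 and 305 CPM with GSK-J5, and TGFB2 between 7.22 and 12.3 CPM with GSK-J4 and between 5.98 and 15.6 CPM with GSK-J5. All 9 genes overlapped between the compounds in this line, and how many of all genes did so was not counted.

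**Figure D4:**
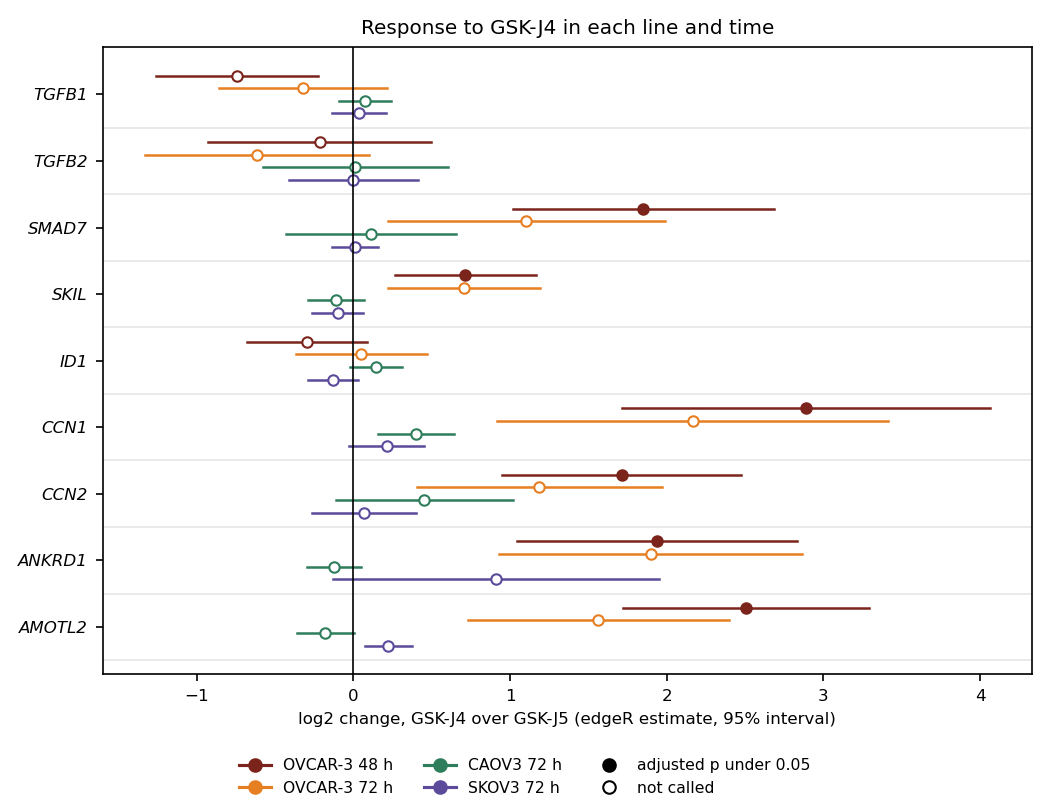
Log2 change with GSK-J4 relative to GSK-J5 for the 9 genes in OVCAR-3 at 48 h and 72 h, CAOV3 at 72 h and SKOV3 at 72 h, from edgeR. Points are estimates and bars are approximate 95% intervals; the OVCAR-3 estimates for CCN1 are 2.89 and 2.16, against 0.40 in CAOV3 and 0.21 in SKOV3.

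Whether the response differed between the lines was tested directly at 72 h, as the GSK-J4 change in OVCAR-3 minus that in another line, over the 18 libraries of that time. This fit shares 1 estimate of spread per gene over the 3 lines. The SEs below are smaller than those of the OVCAR-3 change fitted alone, which were 0.34 for AMOTL2, 0.20 for SKIL and 0.51 for CCN1. In that fit of OVCAR-3 alone edgeR called 0 of the 9 genes. Against CAOV3, 5 of the 9 genes had a larger change in OVCAR-3 and 0 a smaller, where 19.3% of all genes were called. AMOTL2 differed by 1.76 on the log2 scale (SE 0.26, edgeR adjusted p = 0.00191), ANKRD1 by 2.05 (SE 0.36, adjusted p = 0.00362), SKIL by 0.84 (SE 0.17, adjusted p = 0.00664), CCN1 by 1.78 (SE 0.45, adjusted p = 0.0166) and SMAD7 by 1.01 (SE 0.33, adjusted p = 0.0467). CCN2 did not pass (0.74, 95% interval -0.14 to 1.63, adjusted p = 0.226).

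Against SKOV3, 4 of the 9 had a larger change in OVCAR-3, where 20.8% of all genes were called. They were AMOTL2 (1.35, SE 0.26, edgeR adjusted p = 0.00518), SKIL (0.82, SE 0.17, adjusted p = 0.00739), CCN1 (1.96, SE 0.45, adjusted p = 0.0113) and SMAD7 (1.10, SE 0.32, adjusted p = 0.0263). CCN2 (1.13, adjusted p = 0.0591) and ANKRD1 (1.12, adjusted p = 0.109) did not pass. These comparisons share the OVCAR-3 libraries. Between CAOV3 and SKOV3, edgeR called 0 of the 9 genes, with 0 at an unadjusted p under 0.05 and 0 by DESeq2 and limma voom, and it called 0.0% of all genes although 1077 had an unadjusted p under 0.05. The interval for ANKRD1 there, -1.90 to 0.04, is wide.

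Both counts against OVCAR-3 depend on the libraries used. Without replicate 1, or without replicate 2, they were 0, with fewer libraries left. The shares of all genes called in those fits are not given here. Within the first set 8 genes differed between OVCAR-3 and CAOV3, with 6 changes higher and 2 lower in OVCAR-3, where 41.5% of all genes were called, and 7 between OVCAR-3 and SKOV3, with 5 higher and 2 lower, where 42.0% were. Between CAOV3 and SKOV3 AMOTL2 alone was called in that set (-0.49, SE 0.11, adjusted p = 0.0354), where 2.26% of all genes were. The 2 lower genes were TGFB1 and TGFB2 in both comparisons with OVCAR-3. Without a term for the library set, 1 gene was called in each of these 2, again with no share of all genes given here.

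The other genes of both pathways were read from lists chosen with earlier results of these data known, so their counts are a description. In OVCAR-3 at 48 h, where the median log2 change of all genes was -0.03, the inhibitors of TGF-beta signalling were the list with the largest share of higher calls, 7 of 13 with 0 lower and a median of 0.72. The targets of YAP and TAZ followed with 9 of 22 higher, 0 lower and a median of 0.54. Without the genes already described, 5 of 11 inhibitors and 5 of 17 YAP and TAZ targets were higher, with medians of 0.68 and 0.47. The background shares were the 11.3% higher and 7.63% lower given above. The inhibitor list also holds USP15, a deubiquitinase that favours the pathway, named after its value was seen. It was not called at 48 h (edgeR adjusted p = 0.0651).

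Among the inhibitors, PMEPA1, which ties up SMADs and is itself induced by TGF-beta, had 67.4 and 86.4 CPM with GSK-J4, against 17.0 and 17.3 CPM with GSK-J5 (log2 change 2.19, SE 0.39, edgeR adjusted p = 0.0195). BAMBI, a decoy receptor, TGIF1, a SMAD co-repressor, PPM1A, a SMAD phosphatase, and SMURF1, a ubiquitin ligase for SMADs and receptors, also rose, and were named after their values were seen. Of 16 TGF-beta target genes, 6 were higher and 0 lower (median 0.55), but without SMAD7, SKIL and CCN2 the count was 3 of 13 and the median -0.03, that of all genes. Those 3 were PMEPA1, the metalloproteinase inhibitor TIMP3 and the transcription factor BHLHE40, the last 2 again named after their values were seen.

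Of 15 ligand and latency genes, 1 rose and 1 fell. THBS1, an extracellular protein that can free latent TGF-beta and is also a YAP target, had 84.0 and 116 CPM with GSK-J4, against 26.8 and 26.6 CPM with GSK-J5 (log2 change 1.94, SE 0.25, edgeR adjusted p = 0.0118). LRRC32, which holds latent TGF-beta on the cell surface, fell to 1.05 and 1.22 CPM with GSK-J4, against 15.2 and 14.8 CPM with GSK-J5 (-3.70, SE 0.98, adjusted p = 0.0401). Of 11 receptors and SMADs, 3 rose and 0 fell, led by the SMAD anchor ZFYVE9 (1.12, SE 0.27, adjusted p = 0.0338) and the activin receptor ACVR1B (1.07, SE 0.16, adjusted p = 0.015).

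Among the YAP and TAZ targets the largest change was that of GADD45A, a growth arrest gene also induced by DNA damage and other stresses. It had 462 and 440 CPM with GSK-J4, against 24.3 and 26.1 CPM with GSK-J5 (18.3-fold, log2 change 4.19, SE 0.75, edgeR adjusted p = 0.0195). CCN1 was the next in size. Of 18 Hippo pathway genes, 6 rose and 1 fell, led after AMOTL2 by the kinase TAOK3, at 54.0 and 60.8 CPM with GSK-J4 against 14.1 and 15.1 CPM with GSK-J5 (2.00, SE 0.27, adjusted p = 0.0121). Of 9 genes for YAP, TAZ, the TEAD factors and their partners, 2 rose and 0 fell: the TEAD co-factor VGLL3 (1.39, SE 0.41, adjusted p = 0.0486) and TEAD3 (0.50, SE 0.14, adjusted p = 0.0465). The mRNA of YAP1 itself, named after its value was seen, was at 81.5 and 87.3 CPM with GSK-J4 and 84.5 and 96.0 CPM with GSK-J5 (adjusted p = 0.793). In the CCN family of 5 tested genes, CCN1 and CCN2 rose and CCN4 fell, on 1 and 3 counts with GSK-J4 against 26 and 26 counts with GSK-J5.

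The BMP branch moved in both directions. Of 10 BMP target genes, 4 rose and 3 fell. UNC5B, a netrin receptor, had 64.4 and 68.9 CPM with GSK-J4, against 10.5 and 9.72 CPM with GSK-J5 (log2 change 2.75, SE 0.27, edgeR adjusted p = 0.0065). ID2 and ID3, close relatives of ID1, were among those that fell, by 0.67 and 0.81 on the log2 scale. ID4, of the same family, was among those that rose, by 0.61 (edgeR adjusted p = 0.0346). These 3 were named after their values were seen. Of 13 BMP ligands, receptors, SMADs and antagonists, 1 rose and 3 fell. The secreted BMP antagonist NOG was at 7.07 and 5.52 CPM with GSK-J4, against 76.3 and 91.1 CPM with GSK-J5 (-3.70, SE 1.05, adjusted p = 0.0456), and FST, which binds activins, at 29.4 and 28.5 CPM with GSK-J4, against 114 and 116 CPM with GSK-J5 (-1.96, SE 0.39, adjusted p = 0.0231). Of the 10 epithelial markers 1 rose, KRT7 (1.42, adjusted p = 0.0399), and 3 fell, led by KRT19 (-1.59, adjusted p = 0.0183). As with the 9 genes, leaving out any single 48 h library removed every one of these list calls. The shares of all genes called in those fits are not given here.

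**Figure D5:**
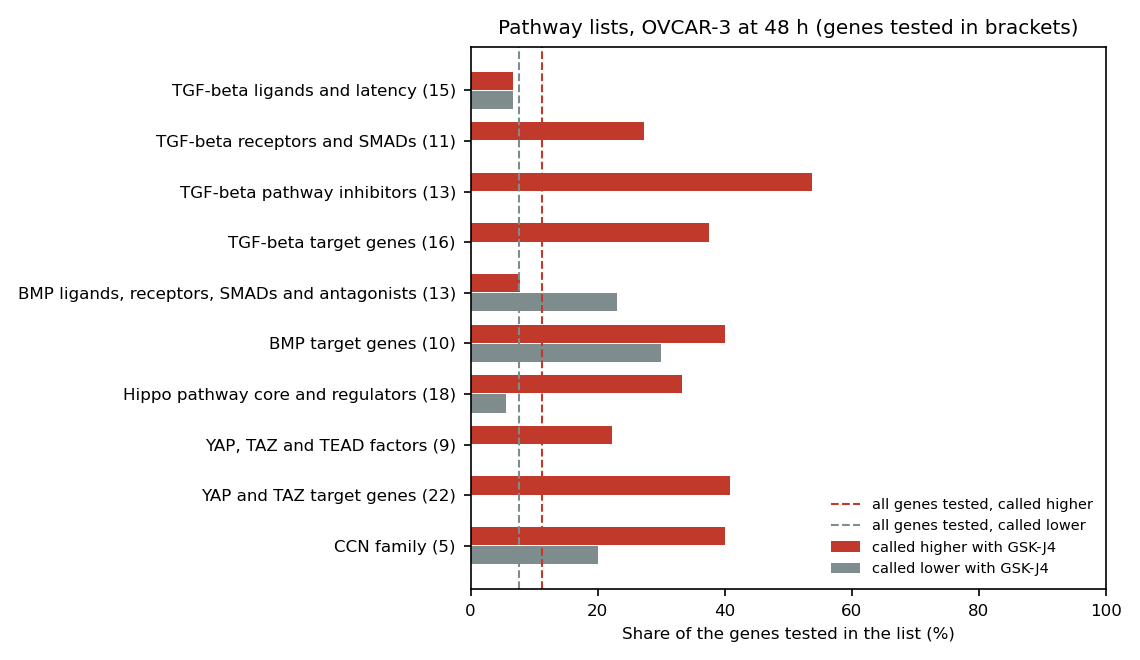
Share of tested genes in each list called higher or lower with GSK-J4 in OVCAR-3 at 48 h, in percent, with the shares over all genes as lines. Each bar is 1 list; 53.8% of the TGF-beta inhibitors and 40.9% of the YAP and TAZ targets were called higher, and 0.0% of either lower.

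At 72 h in OVCAR-3 edgeR called 0 genes in every list over the 3 replicates. Within the first set 9 of the 13 genes in the inhibitor list, which holds USP15, were higher and 3 lower (median 0.97). Of 22 YAP and TAZ targets, 9 were higher and 6 lower (median 0.12). Of 15 ligand and latency genes, 1 was higher and 10 lower. In that fit 34.6% of all genes were higher and 37.1% lower. GADD45A had 675, 592 and 119 CPM with GSK-J4 in replicates 1, 2 and 3, against 28.2, 24.1 and 43.1 CPM with GSK-J5, and PMEPA1 had 74.0, 92.6 and 30.0 CPM with GSK-J4, against 16.0, 14.3 and 15.6 CPM with GSK-J5. Both had the smaller gap in replicate 3 that the YAP targets showed. NOG had 4.61, 2.52 and 52.6 CPM with GSK-J4, against 95.7, 85.5 and 42.4 CPM with GSK-J5, so it was lower with GSK-J4 in the first set and not in the second. LRRC32 had 0.689, 0.565 and 17.6 CPM with GSK-J4, against 22.3, 21.0 and 22.9 CPM with GSK-J5, so it was lower with GSK-J4 in all 3 replicates, by a much smaller gap in replicate 3.

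The largest list changes of the first set at 72 h in OVCAR-3 were 4.67 for GADD45A, 3.63 for NT5E, 2.53 for PMEPA1, 2.33 for the Hippo kinase STK3, 2.17 for VGLL3, 1.93 for its relative VGLL1, 1.78 for UNC5B and 1.43 for SMAD2, all higher with GSK-J4 on the log2 scale. Lower with GSK-J4 were LRRC32 (-5.03), NOG (-4.60), the basement membrane collagen COL4A1 (-3.50), the Hippo co-factor MOB1B (-2.96), FST (-2.71), the latent TGF-beta binding protein LTBP2 (-2.66), the co-receptor TGFBR3 (-2.55) and the BMP target ATOH8 (-2.40). CCN4 was lower on 2 and 4 counts with GSK-J4, against 21 and 23 counts with GSK-J5. Among epithelial markers KRT7 was higher (2.14) and KRT19 lower (-1.30), and the markers PDGFRB, COL1A2, CLDN5, VWF and CD14 of other cell types were lower, each at or below 4.65 CPM in all OVCAR-3 libraries. All of these passed edgeR's test within that set, with 71.7% of all genes, and their part in the changes of the 9 genes was not tested.

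In the direct tests between lines, GADD45A had a change larger by 3.50 on the log2 scale in OVCAR-3 than in CAOV3 and by 3.50 than in SKOV3 (edgeR adjusted p = 0.00392 in both). The ecto-nucleotidase NT5E, a YAP target, differed by 2.81 and 2.70, PMEPA1 by 2.18 and 2.03, TAOK3 by 2.16 and 1.80, VGLL3 by 1.72 and 1.67, UNC5B by 1.68 and 1.35 and SMAD2 by 0.97 and 0.96, all larger in OVCAR-3. Against CAOV3 alone the leading genes also held VGLL1 (2.17), STK3 (1.79) and ZFYVE9 (1.06) as larger and FST (-2.64), the BMP signal carrier SMAD5 (-1.30), TGIF2 (-1.06) and CCN5 (-2.04) as smaller. The latent TGF-beta binding proteins LTBP1 and LTBP2 went the other way, by -1.72 and -1.60 against CAOV3 and by -1.93 and -1.83 against SKOV3, as did COL4A1, by -2.10 and -2.53. Against SKOV3 the leading genes also held TGFBR3 (-1.81), MOB1B (-1.89), SMAD5 (-1.22), the inhibitor SMAD6 (-1.11) and WWTR1, which encodes TAZ (-1.04), as smaller in OVCAR-3 and SMAD9 (0.91) as larger. KRT7 differed by 1.57 against CAOV3 and 1.49 against SKOV3, and KRT19 by -1.08 against CAOV3. CLDN5 against CAOV3 and LUM against SKOV3, markers of other cell types, were also called as smaller in OVCAR-3, where CLDN5 was at or below 0.545 CPM and LUM at or below 0.449 CPM. Over all replicates, 0 list genes were called for the difference between times or between CAOV3 and SKOV3. Within the first set, 55 of 135 list genes, AMOTL2 included, were called for the change at 72 h minus that at 48 h, 17 as larger and 38 as smaller, where 27.0% of all genes were called. They included COL4A1 (-2.33, SE 0.25, edgeR adjusted p = 0.000477), the YAP target ARHGEF17 (-1.70, SE 0.15, adjusted p = 0.000213) and LTBP1 (-1.47, SE 0.15, adjusted p = 0.000241) as smaller and TEAD4 (0.69, SE 0.17, adjusted p = 0.0102) as larger. Between CAOV3 and SKOV3 within that set, 3 of 146 list genes were called: AMOTL2 as above, the BMP target ID4 (0.65, SE 0.16, adjusted p = 0.0481) and FJX1, which had 0 and 0 counts with GSK-J4 and 5 and 8 counts with GSK-J5 in SKOV3. In CAOV3 itself, 2 list genes were called, FN1 (-0.49, adjusted p = 0.0403), which encodes fibronectin, and the YAP target MYOF (-0.42, adjusted p = 0.0403), both lower with GSK-J4. Neither passed with the replicate number as a block (adjusted p = 0.113 and 0.116) or without replicate 1 or 2. In SKOV3, 0 list genes were called, and with the paired fit, which called 0.13% of all genes, SMAD3 fell by 0.37 (adjusted p = 0.00444) and the YAP target F3 rose by 0.28 (adjusted p = 0.0345).

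Across all 22 libraries, CCN1, ANKRD1 and CCN2 varied most within a line, with SDs of log2 CPM of 1.047, 1.01 and 0.811 after centring in each line. AMOTL2 (0.757) and SMAD7 (0.586) followed, and SKIL varied least (0.318). Among the 9, the profiles of AMOTL2 and SMAD7 were the nearest to each other, with a root-mean-square difference of 0.233 in centred log2 CPM, and CCN1 and CCN2 differed by 0.424. Of 13443 genes searched, RAB32, YRDC and RND3 lay nearest to CCN1 (0.254 to 0.285), RRP9, SPX and the pseudogene SBDSP1 to ANKRD1 (0.292 to 0.318), and AEN, GULP1 and NXT1 to CCN2 (0.211 to 0.329). These values describe likeness over libraries that share the lines, compounds and sets, and carry no test. SBDSP1 shares sequence with SBDS, so its counts are uncertain.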

How the data were processed

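RNA-seq of 14 samples in 3 cell lines was deposited by the authors as 3 tables of raw read counts per gene (22 libraries, 58825 identifiers with GENCODE 29 versions). Reads were aligned with STAR to GRCh38 (hg38), and DESeq2 was used, per the submitters' processing notes; tool versions, strandedness and the counter are not given in the sources used, so reads of overlapping antisense genes may be included. A gene name table gave 58472 symbols, and GENCODE 345 more. R 4.3.3 with edgeR 4.0.16 was run on the deposited counts: filterByExpr (minimum count 10), TMM, robust quasi-likelihood fits and tests with library set as a covariate, and Benjamini-Hochberg adjustment over all genes tested at 0.05. The OVCAR-3 48 h change and the difference between times came from 1 fit of the 10 OVCAR-3 libraries, each 72 h change from the 6 libraries of its line, line differences from the 18 libraries of 72 h, and GSK-J5 levels from the 9 GSK-J5 libraries of 72 h. A standard error is the absolute log2 change divided by the square root of F, and intervals are approximate. The code was tested on simulated counts.

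DESeq2 1.42.0, limma 3.58.1 voom, other scalings, filters and left-out libraries were alternatives. Same-numbered SKOV3 libraries deviated together (correlations of 0.516, 0.525 and 0.833 between compounds). A paired fit, with the replicate number as a block, was therefore run as an alternative, and some of its values are given. The main SKOV3 fit and the main line differences were not paired. In OVCAR-3 and CAOV3 same-numbered libraries did not all deviate together at 72 h. At 24037007 to 37990707 counts per library, counting error is small for abundant genes. It is larger for genes at a low level, such as those whose counts are printed and LRRC32 in OVCAR-3 with GSK-J4. In CAOV3, SMAD7, TGFB2 and CCN2 had as few as 92, 109 and 91 counts in a library. The members and lists were chosen with earlier results of these data known. Named are the 9 genes, the 2 called genes with the largest change per list and comparison (in OVCAR-3 at 72 h from the first set; 1 marker gene is not reported here), and the 3 genes nearest to each of the 3 most variable members. Promoter sequences are RefSeq's, and exon lengths GENCODE's.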

Additional observations from a re-analysis of the deposited data

Results flagged for a closer look

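Each result below is a difference between lines in the response to GSK-J4 at 72 h that passed edgeR's interaction test. Its estimate of spread is shared by the 3 lines, and OVCAR-3 fitted alone gave no called gene of the 9 at 72 h. Against CAOV3, the change in OVCAR-3 was larger by 1.01 for SMAD7, 0.84 for SKIL, 1.78 for CCN1, 2.05 for ANKRD1 and 1.76 for AMOTL2 on the log2 scale. Against SKOV3, it was larger by 1.10 for SMAD7, 0.82 for SKIL, 1.96 for CCN1 and 1.35 for AMOTL2. In OVCAR-3, all 3 GSK-J4 libraries lay above all 3 GSK-J5 libraries for these 5 genes on the TMM scale. SMAD7 overlapped on library totals alone. The share of all genes separated in this way was not counted. In CAOV3 and SKOV3 the libraries overlapped on the TMM scale, except for AMOTL2 in CAOV3, where all 3 GSK-J4 libraries were the lower ones; on library totals alone SKIL in CAOV3 did not overlap either. GSK-J5 levels of these genes differ between the lines, and their part in these differences was not tested.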

How the results depend on the processing

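The number of the 9 genes called in OVCAR-3 at 48 h was 6 and stayed between 4 and 8 with DESeq2, limma voom, no low-count filter, no library set term, library totals alone (an alternative chosen after seeing the data) or the 48 h libraries alone; it was 2 with the replicate block and between 0 and 7 with replicates or single libraries left out, where fewer samples remain. In OVCAR-3 at 72 h it was 0, with 6 by DESeq2's Wald test, 3 with no filter, 8 in the first set, 6 with all 10 OVCAR-3 libraries, 6 with all 18 libraries of 72 h, 0 with the block and 0 to 8 with libraries left out. In CAOV3 it was 0, with 1 by DESeq2's Wald test, 1 by limma voom, 1 with no filter, 2 in the first set and 0 to 3 with libraries left out; in SKOV3 it was 0 in all 18 alternatives. For 72 h minus 48 h in OVCAR-3 and for CAOV3 minus SKOV3 it was 0, with 1 in the first set and 0 to 1 with a replicate left out. For OVCAR-3 minus CAOV3 it was 5, with 1 without the set term, 3 with the block, 8 in the first set and 0 to 8 with a replicate left out. For OVCAR-3 minus SKOV3 it was 4, with 1 without the set term, 3 with the block, 7 in the first set and 0 to 7 with a replicate left out. GSK-J5 levels gave 9 calls between OVCAR-3 and SKOV3, with 4 to 9 when a replicate was left out, and changed by less than 1.5 times in the other line pairs. No called gene changed sign. Outside SKOV3 replicate numbers do not pair the libraries by the data: correlations were -0.0805, 0.0422 and 0.00378 in OVCAR-3 at 72 h, 0.106, 0.0427 and 0.32 in CAOV3, and 0.16 for both numbers in OVCAR-3 at 48 h. In SKOV3 the block raised the count over all genes to 22, against 7 without it, and changed no call of the 9. Shares of all genes called under these alternatives are given only where stated above. Apart from the fits above, the cause of a changed count was not tested. The 2 libraries per compound at 48 h, and a second set with 1 library per compound and line, limit every statement on OVCAR-3.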
